A study of Mus musculus with 4 samples.

Results

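The guidance genes described here were the 34 mouse genes listed by symbol for the Slit, netrin, RGM and ephrin systems, out of 24421 symbols in the table of read counts. They were 3 Slit ligands, 4 Robo receptors, netrin-1, 6 netrin receptors, 2 RGM proteins, 8 ephrins and 10 Eph receptors. Semaphorins and plexins were not among them. Each gene was compared between DPPIV+ and DPPIV- FAPs of the same mouse. Fibro-adipogenic progenitors, or FAPs, are mesenchymal cells found between muscle fibres, and Dpp4 encodes the surface peptidase DPPIV. Both cell types were sorted from 2 wild-type mice as PI- CD31- CD45- Sca1+ cells and split on DPPIV, which gave 4 bulk libraries with n = 2 mice per cell type. Both mice had eaten chow with the CSF1R inhibitor PLX73086 for 3 weeks, which removes macrophages that need CSF1R, and then regular chow for 3 days. There were no untreated mice. The study used adult mice of either sex, and the age and sex of these 2 mice were not given in the sources used here. The labels name the tibialis anterior as the tissue, whereas the protocol describes muscle of both hindlimbs.

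Slits are secreted proteins that bind Robo receptors and, in the nervous system, push growing axons and migrating cells away. Netrin-1 is a secreted cue that attracts through Dcc and neogenin and repels through Unc5 receptors, and neogenin is also the receptor of the membrane-anchored RGM proteins, which act as BMP co-receptors. Ephrins are membrane-bound ligands of the Eph receptor tyrosine kinases, so cells must touch for them to signal, and both the receptor cell and the ligand cell respond. Ephrin-A proteins are held by a lipid anchor and ephrin-B proteins span the membrane.

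The 4 libraries held 18240110 to 20879405 reads counted on genes, so that 3 reads, the limit that a count of 0 allows, were worth 0.143 to 0.167 CPM (read counts scaled to the library total). Such limits cover counting error only. Here and below, a pair of values names mouse 1 first and mouse 2 second. Dpp4 stood at 89.8 and 39.7 CPM after sorting for its absence and at 728 and 575 CPM after sorting for its presence. The FAP markers Pdgfra, Ly6a, Cd34, Dcn, Lum and Col1a1 summed to 28700 to 36400 CPM in every library. Their sum was lower in DPPIV+ FAPs, with log2 ratios of -0.34 in mouse 1 and -0.20 in mouse 2. Of these 6 markers, 4 were lower and 2, Ly6a and Cd34, were higher, all of them also by DESeq2. Markers of mural cells, the pericytes and smooth muscle of vessels, summed to 151 and 152 CPM in DPPIV- FAPs against 55.6 and 70.6 CPM in DPPIV+ FAPs, and 6 of 7 were lower in DPPIV+ FAPs, 4 of these also by DESeq2. Of 6 macrophage and blood cell markers, 4 were lower, with sums of 319 and 188 CPM against 198 and 181 CPM. None of these 4 calls was made by DESeq2 or without the mouse block, and the log2 ratio of the sums was -0.68 in mouse 1 and -0.06 in mouse 2. Of the blood endothelial markers, Tek was higher in DPPIV+ FAPs (log2 fold change 1.42), and with it the list summed to 300, 210, 527 and 482 CPM in DPPIV- FAPs of the 2 mice and then DPPIV+ FAPs. Without Tek they summed to 114, 60.4, 60.5 and 54.9 CPM in the same order, and 8 of the 10 tested were lower. DESeq2 made 0 of these 8 calls and the fit without the block 1, and the log2 ratio of the sums was -0.91 in mouse 1 and -0.14 in mouse 2. Of 6 tenocyte markers, 4 were higher, all of them also by DESeq2, and 2 were lower, neither by DESeq2. The 4 were Tnmd, Mkx, Scx and Fmod, with log2 fold changes of 1.27, 1.44, 2.14 and 2.26. The list summed to 1970 and 2640 CPM in DPPIV- FAPs against 2000 and 3960 CPM in DPPIV+ FAPs, with log2 ratios of 0.02 and 0.59. Of 5 glial markers tested, 2 were lower, both also by DESeq2, and 1 was higher, not by DESeq2. Of 2 perineurial markers tested, 1 was lower, also by DESeq2. No lymphatic or myofibre marker was called, and no satellite cell marker was tested. Among called markers, Kcnj8 (mural), Erg (endothelial) and Cldn1 (perineurial) reached 2 CPM in DPPIV- FAPs alone, and Scx (tenocyte) in DPPIV+ FAPs alone. They had to differ to be tested. Across all genes tested, edgeR called 15.9% higher and 17.2% lower, and DESeq2 7.97% and 8.59%. The mural list was lower in both mice, and the blood cell and endothelial differences lay mainly in the DPPIV- library of mouse 1. On the DPPIV+ side, the 4 tenocyte markers named above were higher in both mice. The part of these cells in the results below was not tested. In bulk samples, fewer cells of a type and less RNA per cell cannot be told apart.

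Opposite changes within a family were found for Slit2 and Slit3, Robo1 and Robo2, and Efna1 and Efna5. Slit2 and Robo2 reached 2 CPM in DPPIV- FAPs alone and so had to differ to be tested. The start regions of the 6 genes are shown. Each is the RefSeq window from 250 bases before to 50 bases after the start, on GRCm38.p6, written 5′ to 3′ on the strand of the gene. Capitals mark GC boxes (GGGCGG on either strand) and the TATAAA motif.
Slit2: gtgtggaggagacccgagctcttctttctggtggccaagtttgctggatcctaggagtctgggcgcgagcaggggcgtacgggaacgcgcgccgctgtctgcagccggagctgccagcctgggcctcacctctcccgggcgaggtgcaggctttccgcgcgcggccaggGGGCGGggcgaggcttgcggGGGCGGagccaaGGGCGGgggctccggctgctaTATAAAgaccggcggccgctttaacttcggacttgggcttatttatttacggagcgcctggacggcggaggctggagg
Slit3: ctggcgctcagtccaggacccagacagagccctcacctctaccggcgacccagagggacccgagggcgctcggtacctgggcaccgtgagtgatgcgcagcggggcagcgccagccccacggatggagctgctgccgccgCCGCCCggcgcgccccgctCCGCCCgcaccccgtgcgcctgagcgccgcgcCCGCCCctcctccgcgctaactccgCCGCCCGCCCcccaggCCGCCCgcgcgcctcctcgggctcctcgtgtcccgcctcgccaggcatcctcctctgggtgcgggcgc
Robo1: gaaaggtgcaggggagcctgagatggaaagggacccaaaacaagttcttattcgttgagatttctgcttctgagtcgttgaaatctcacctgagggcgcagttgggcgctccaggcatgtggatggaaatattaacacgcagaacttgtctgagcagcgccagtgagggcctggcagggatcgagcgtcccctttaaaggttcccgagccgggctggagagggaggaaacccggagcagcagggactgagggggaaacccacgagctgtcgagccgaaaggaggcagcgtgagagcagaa
Robo2: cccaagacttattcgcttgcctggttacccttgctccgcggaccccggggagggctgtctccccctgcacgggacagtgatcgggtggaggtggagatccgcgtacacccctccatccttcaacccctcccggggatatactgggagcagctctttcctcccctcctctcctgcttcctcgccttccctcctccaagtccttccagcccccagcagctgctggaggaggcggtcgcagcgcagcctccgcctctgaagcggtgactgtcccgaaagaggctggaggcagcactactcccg
Efna1: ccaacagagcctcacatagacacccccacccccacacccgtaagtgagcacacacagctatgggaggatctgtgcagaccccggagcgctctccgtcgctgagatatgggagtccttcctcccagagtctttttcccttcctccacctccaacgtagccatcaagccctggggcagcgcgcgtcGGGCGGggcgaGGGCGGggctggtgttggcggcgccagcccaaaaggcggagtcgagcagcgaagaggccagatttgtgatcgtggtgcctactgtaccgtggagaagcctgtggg
Efna5: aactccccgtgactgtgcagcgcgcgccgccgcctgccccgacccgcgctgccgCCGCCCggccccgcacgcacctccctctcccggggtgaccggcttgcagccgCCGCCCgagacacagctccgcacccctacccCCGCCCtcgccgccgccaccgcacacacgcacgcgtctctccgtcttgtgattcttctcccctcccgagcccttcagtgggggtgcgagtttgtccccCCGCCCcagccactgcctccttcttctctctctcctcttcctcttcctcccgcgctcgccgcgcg

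The Slit2 window lay at chr5:47982905-47983204 on the plus strand and held 3 GC boxes, 1 TATAAA and 30 CpG dinucleotides. That of Slit3 lay at chr11:35121206-35121505 on the plus strand, with 6 GC boxes, counting overlapping matches, no TATAAA and 41 CpG dinucleotides. The windows of Robo1 (chr16:72662899-72663198, plus strand) and Robo2 (chr16:74411776-74412075, minus strand) held none of the motifs and had 15 and 17 CpG dinucleotides. The Efna1 window (chr3:89279596-89279895, minus strand) held 2 GC boxes and 20 CpG dinucleotides, and the Efna5 window (chr17:62881268-62881567, minus strand) held 4 and 38. RefSeq windows were matched for 28 of the 34 genes. A GC box was found in 19 of these, CCAAT in 12 and TATAAA in 2. Over all 32851 windows of the table, for 27025 genes, 35.7% held a GC box, 37.4% CCAAT and 13.6% TATAAA, counted on both strands, and the median number of CpG dinucleotides was 7. These shares count every window, with more than 1 for some genes. Each guidance gene was counted by 1 window, so the 2 sets are not measured alike. The start of the Slit3 window was 232 bases from that of the principal transcript in GENCODE, and that of Robo2, the nearest of 3 windows, was 533 bases away. A match of letters is a description only.

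DPPIV+ FAPs had more Slit3, Robo1, Ntn1, Efna5 and Efnb2 and less of 13 other guidance genes. Among those 13 were all but 1 of the listed Eph receptors that were tested. Epha1, an Eph receptor outside the list, was higher in DPPIV+ FAPs (log2 fold change 2.35). Of the 34 genes, 22 reached 2 CPM in at least 2 libraries and were tested, 12 did not, and 1 of those, Unc5d, had no reads. With mouse as a block, edgeR's quasi-likelihood test (two-sided, Benjamini-Hochberg over 11588 genes) called 5 higher and 13 lower, and 4 did not pass. Across all genes tested the same test called 15.9% higher and 17.2% lower, 33.0% in all. The median log2 fold change was -0.42 for the 22 guidance genes and -0.002 for all genes tested. DESeq2 also made the 5 calls that were higher and 11 of the 13 that were lower, where it called 7.97% and 8.59% of all genes. All 18 called genes had the same sign in both mice. Slit2 and Robo2 passed the filter through DPPIV- FAPs alone and so had to differ to be tested, and these counts describe only the genes that could be measured.

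**Figure D1:**
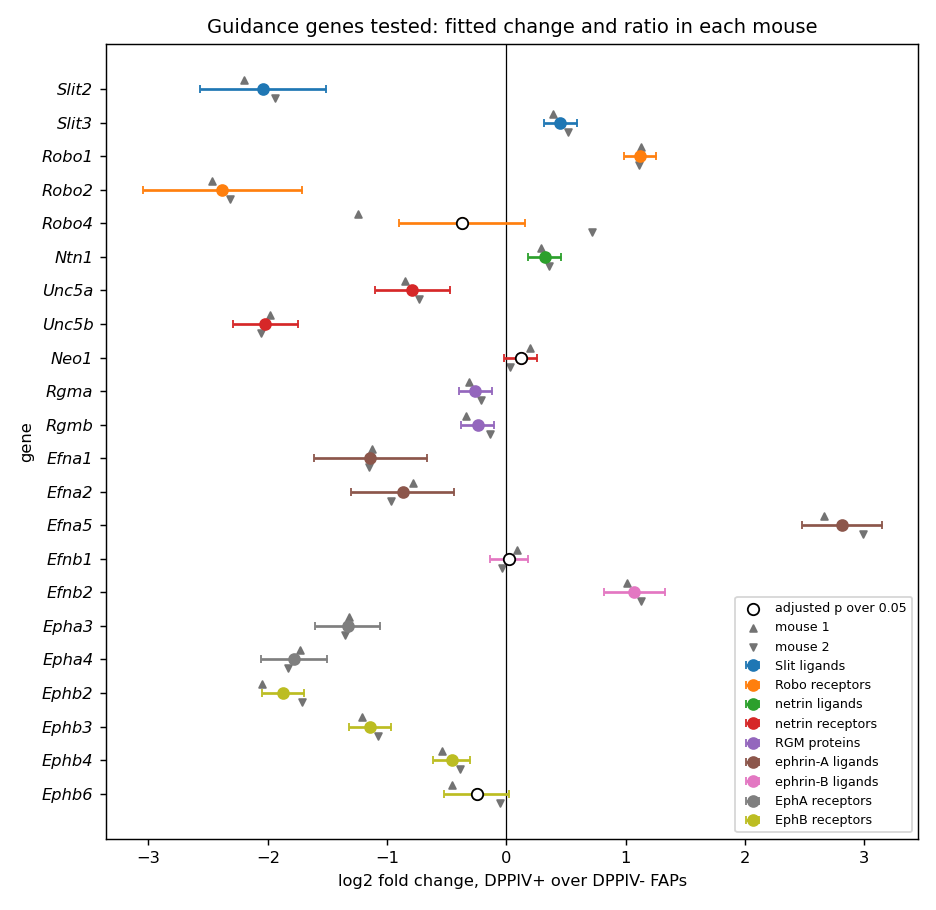
Log2 fold change, DPPIV+ over DPPIV- FAPs, of the 22 guidance genes tested, with 95% intervals from edgeR's standard errors and the log2 ratio in each mouse as grey triangles. Filled circles passed an adjusted p of 0.05, open circles did not; Efna5 lies farthest to the right at 2.81 and Robo2 farthest to the left at -2.38, and the ratios of the 2 mice lie on opposite sides of 0 for Robo4 and Efnb1.

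Counted per kilobase of principal transcript, which allows genes to be set beside each other, Slit3, Rgma and Ntn1 led the 34 genes in both cell types. In DPPIV- FAPs, Slit3 stood at 101 ± 8.68 CPM per kb (SD, n = 2), followed by Rgma with 92.8 ± 5.03 and Ntn1 with 68.6 ± 6.40. Rgma and Slit3 did not differ beyond their spread. In DPPIV+ FAPs, Slit3 stood at 138 ± 3.23 CPM per kb, Ntn1 at 85.8 ± 5.33 and Rgma at 77.6 ± 0.27. The next in DPPIV- FAPs were Rgmb at 26.1 ± 3.33 and the receptor gene Neo1 at 22.9 ± 1.99 CPM per kb, whose spreads overlapped. Robo1 was ninth in DPPIV- FAPs at 7.84 ± 0.106 CPM per kb and sixth in DPPIV+ FAPs at 17.1 ± 0.0583. Efna5 moved from place 21 to place 10 and Efnb2 from 18 to 11, whereas Unc5b moved from 11 to 19.

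**Figure D2:**
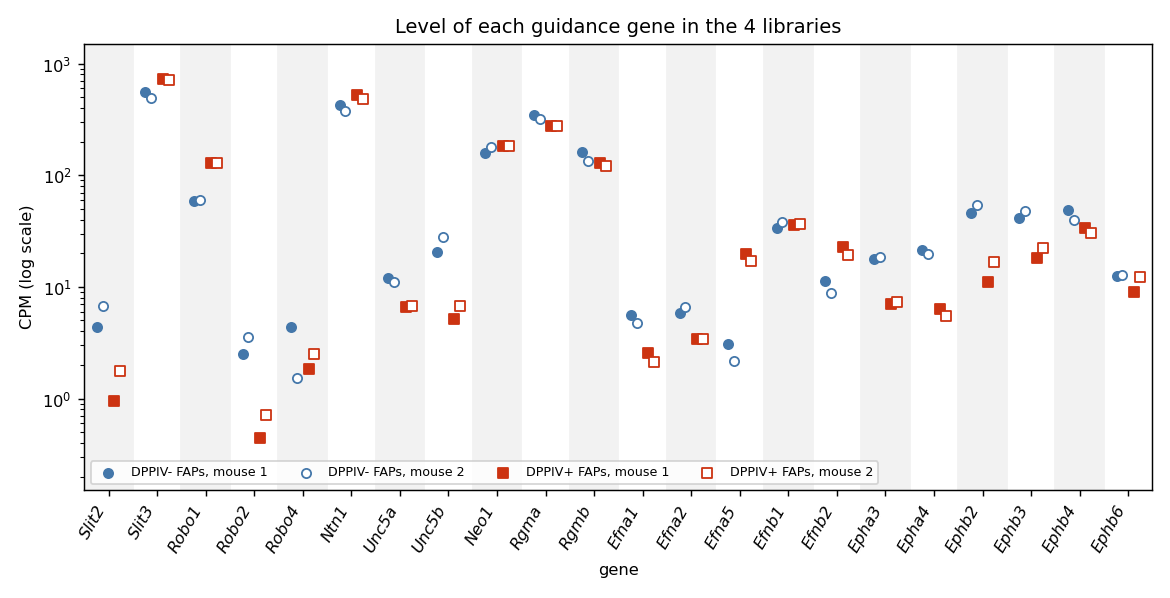
CPM of each tested guidance gene in the 4 libraries, on a log axis, with circles for DPPIV- FAPs, squares for DPPIV+ FAPs, filled symbols for mouse 1 and open symbols for mouse 2. Slit3 reaches 560, 496, 733 and 709 CPM at the top, and Robo2 in DPPIV+ FAPs lies lowest, at 0.444 and 0.713 CPM; CPM are not per length, so heights compare libraries and not genes.

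Of the secreted Slit ligands, Slit3 was the abundant one and rose, whereas Slit2 was low and fell. Slit3 (chr11:35121224-35708507, plus strand, GENCODE M21 on GRCm38) stood at 560 and 496 CPM in cells sorted as DPPIV- and at 733 and 709 CPM in those sorted as DPPIV+. Both DPPIV+ libraries lay above both DPPIV- libraries, and the log2 fold change was 0.45 (SE 0.07, adjusted p = 7.17e-10). Slit2 (chr5:47983138-48307733, plus strand) stood at 4.35 and 6.75 CPM in DPPIV- FAPs against 0.944 and 1.76 CPM in DPPIV+ FAPs. Its libraries did not overlap either, in the opposite direction, and its log2 fold change was -2.04 (SE 0.27, adjusted p = 1.94e-13) on 91 and 132 reads against 17 and 32. Slit2 reached 2 CPM in DPPIV- FAPs alone, so it had to differ to be tested. Reads of Slit3 thus outnumbered those of Slit2 by 129 and 73.5 to 1 in DPPIV- FAPs and by 776 and 404 to 1 in DPPIV+ FAPs. Slit1, the third ligand, had 1 to 6 reads per library and was not tested.

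The Robo receptors divided in the same way. Robo1 (chr16:72308306-73046095, plus strand), a Slit receptor made by many tissues, stood at 58.7 and 59.9 CPM in DPPIV- FAPs and at 129 CPM in DPPIV+ FAPs of both mice. The mice were nearly alike and the cell types far apart, with a log2 fold change of 1.12 (SE 0.07, adjusted p = 4.82e-61). Robo2 (chr16:73891839-74411825, minus strand), which lies 845743 bases from Robo1, stood at 2.48 and 3.58 CPM against 0.444 and 0.713 CPM. The DPPIV+ libraries were below both DPPIV- libraries (log2 fold change -2.38, SE 0.34, adjusted p = 3.16e-11), on 52 and 70 reads against 8 and 13. Like Slit2, Robo2 reached 2 CPM in DPPIV- FAPs alone and so had to differ to be tested. Reads of Robo1 exceeded those of Robo2 by 23.6 and 16.7 to 1 in DPPIV- FAPs and by 290 and 182 to 1 in DPPIV+ FAPs. Robo4, known as the Robo of endothelial cells, stood at 4.35 and 1.53 CPM in DPPIV- FAPs and 1.83 and 2.52 CPM in DPPIV+ FAPs. Its libraries overlapped and the mice moved in opposite directions, with log2 ratios of -1.24 and 0.72, and it did not pass the test (log2 fold change -0.37, 95% interval -0.90 to 0.15, adjusted p = 0.319). The DPPIV- library of mouse 1 was highest for Robo4 as it was for the endothelial markers without Tek, and the part of those markers was not tested. Robo3 had 1 read in 1 library.

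Summed per kb, Slit ligands stood at 108 and 95.6 CPM per kb in DPPIV- FAPs and at 140 and 136 in DPPIV+ FAPs, a log2 ratio of 0.38 and 0.51 in the 2 mice. Robo receptors summed to 9.53 and 8.99 against 17.7 and 18 CPM per kb, with log2 ratios of 0.89 and 1.00. Ligand and receptor sums were thus both higher in DPPIV+ FAPs, and they were carried by Slit3 and Robo1.

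**Figure D3:**
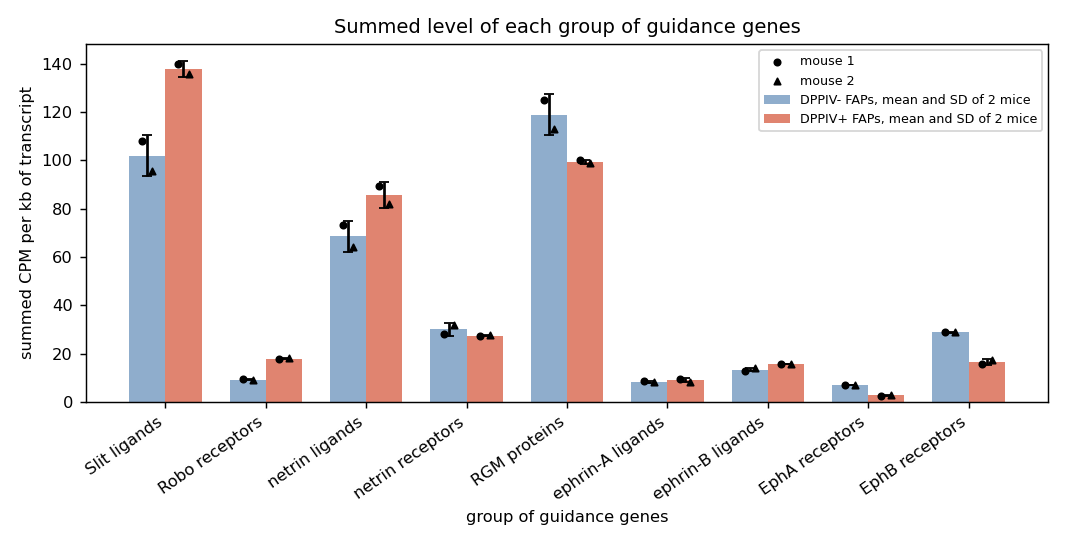
Summed level of each group of guidance genes in CPM per kb of principal transcript, bars giving the mean and error bars the SD of 2 mice, with the mice as points. Sums of Slit ligands, Robo receptors, the netrin ligand and ephrin-B ligands are higher in DPPIV+ FAPs in both mice (Robo: 17.7 and 18 against 9.53 and 8.99). Those of RGM, EphA and EphB genes are lower, and the ephrin-A libraries overlap. Netrin receptor sums differ little, at 27.3 and 27.7 against 28.0 and 31.9, with log2 ratios of -0.03 and -0.20.

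Netrin-1 rose modestly in DPPIV+ FAPs while 2 of its repulsive receptors fell. Ntn1 (chr11:68209364-68400823, minus strand) stood at 430 and 376 CPM in DPPIV- FAPs and at 526 and 482 CPM in DPPIV+ FAPs. The libraries did not overlap, and the log2 fold change was 0.32 (SE 0.07, adjusted p = 1.26e-05). Without the mouse block its adjusted p was 0.0669. Unc5b (chr10:60762593-60831581, minus strand), a receptor well known from vessels, stood at 20.4 and 28.1 CPM against 5.16 and 6.75 CPM. It fell by 1.98 and 2.06 on the log2 scale in the 2 mice (fitted log2 fold change -2.02, SE 0.14, adjusted p = 4.53e-48). Unc5a stood at 11.9 and 11.1 CPM against 6.55 and 6.69 CPM, also without overlap (log2 fold change -0.79, SE 0.16, adjusted p = 6.91e-06).

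Dcc, the classical attractive netrin receptor, had 1 and 3 reads in DPPIV- FAPs and none in the DPPIV+ libraries. Unc5c had 0 to 7 reads per library and Unc5d had 0 in all 4 libraries, so these 3 receptors were not detectable or barely so at this depth. Neogenin (Neo1) was therefore the main netrin receptor gene by level, at 159 and 180 CPM in DPPIV- FAPs and 183 and 184 CPM in DPPIV+ FAPs. Both DPPIV+ libraries were above both DPPIV- libraries, but the difference did not pass the test (log2 fold change 0.12, 95% interval -0.01 to 0.25, adjusted p = 0.175). Netrin receptors summed to 28.0 and 31.9 CPM per kb in DPPIV- FAPs and to 27.3 and 27.7 in DPPIV+ FAPs, and Neo1 made up most of each sum.

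The RGM genes, whose products bind neogenin and BMPs, were abundant and slightly lower in DPPIV+ FAPs. Rgma stood at 346 and 320 CPM in cells sorted as DPPIV- against 279 and 278 CPM in those sorted as DPPIV+ (log2 fold change -0.26, SE 0.07, adjusted p = 6.55e-04). Rgmb stood at 162 and 135 CPM against 128 and 122 CPM (log2 fold change -0.24, SE 0.07, adjusted p = 0.00107). Neither gene's libraries overlapped, but both calls were lost without the mouse block, with adjusted p of 0.0756 for Rgma and 0.154 for Rgmb. The call of Rgma was also lost after correction for GC content and length (log2 fold change -0.13, adjusted p = 0.107), and that of Rgmb in DESeq2 (adjusted p = 0.143). Rgma shares 258 exon bases with the antisense gene A730056A06Rik, which had 211 to 263 reads per library.

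Among the ephrin-A ligands, Efna5 rose and Efna1 and Efna2 fell. Efna5 (chr17:62604184-62881317, minus strand) stood at 3.11 and 2.15 CPM in DPPIV- FAPs and at 19.7 and 17.1 CPM in DPPIV+ FAPs. The DPPIV+ libraries were far above both DPPIV- libraries, by 7.00-fold in the fit (log2 fold change 2.81, SE 0.17, adjusted p = 3.99e-56), which placed Efna5 at rank 47 of the 11588 genes by log2 fold change. Efna1 (chr3:89271733-89281142, minus strand) stood at 5.59 and 4.75 CPM against 2.55 and 2.14 CPM. Its libraries were separate in the opposite direction, and its log2 fold change was -1.14 (SE 0.24, adjusted p = 1.45e-05). The ratio of Efna5 to Efna1 reads was 0.556 and 0.452 in DPPIV- FAPs and 7.70 and 8.00 in DPPIV+ FAPs, so the more abundant of the 2 by reads differed between the cell types. Efna2 stood at 5.83 and 6.65 CPM against 3.39 and 3.40 CPM (log2 fold change -0.87, SE 0.22, adjusted p = 2.96e-04) and was not called by DESeq2 (adjusted p = 0.108). Efna4 had 31 to 41 reads per library and Efna3 0 to 3, and neither was tested. The 5 ephrin-A genes summed to 8.55 and 8.11 CPM per kb in DPPIV- FAPs and 9.58 and 8.35 in DPPIV+ FAPs, so that the sums overlapped although the leading gene changed.

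Of the ephrin-B ligands, Efnb2 rose. Efnb2 (chr8:8617434-8661242, minus strand), known as a marker of arterial endothelium, stood at 11.2 and 8.84 CPM in DPPIV- FAPs and at 22.6 and 19.4 CPM in DPPIV+ FAPs. The libraries did not overlap, and the log2 fold change was 1.07 (SE 0.13, adjusted p = 2.60e-16). The sums of blood endothelial markers, with and without Tek, are given above, and the part of endothelial cells in this rise was not tested. Efnb1, the most abundant ephrin per kb, stood at 33.5 and 37.9 CPM against 35.5 and 36.9 CPM. Its libraries overlapped, the mice had opposite signs, and it did not pass (log2 fold change 0.02, 95% interval -0.14 to 0.18, adjusted p = 0.883). Efnb3 had 13 to 26 reads per library and was not tested.

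Most of the tested Eph receptors were lower in DPPIV+ FAPs. Of 10 listed, 6 were tested, 5 fell in DPPIV+ FAPs, none rose and Ephb6 did not pass. Of all genes tested, 17.2% fell. Ephb2 (chr4:136647539-136835988, minus strand) stood at 45.9 and 54.1 CPM in DPPIV- FAPs against 11.1 and 16.6 CPM in DPPIV+ FAPs. It was separated by the widest margin of the EphB receptors, with a log2 fold change of -1.87 (SE 0.09, adjusted p = 3.76e-86). Ephb3 (chr16:21204755-21223305, plus strand) stood at 41.8 and 47.5 CPM against 18 and 22.5 CPM (log2 fold change -1.14, SE 0.09, adjusted p = 2.15e-36). Ephb4 (chr5:137350109-137378669, plus strand), the ephrin-B2 receptor known from veins, stood at 48.5 and 39.8 CPM against 33.4 and 30.4 CPM. Its fall was smaller, with a log2 fold change of -0.46 (SE 0.08, adjusted p = 1.00e-07), and its libraries did not overlap. Ephb6, a receptor whose kinase domain is inactive, stood at 12.5 and 12.8 CPM against 9.05 and 12.3 CPM. The DPPIV- libraries were above, mouse 2 by little, and the test was not passed (log2 fold change -0.25, 95% interval -0.53 to 0.03, adjusted p = 0.186). Short stretches of 51 to 82 bases of Ephb2 transcripts were at least 97% identical to other genes.

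Of the EphA receptors, Epha4 (chr1:77367185-77515088, minus strand), which binds ephrins of both classes, stood at 21.3 and 19.7 CPM in DPPIV- FAPs against 6.39 and 5.54 CPM in DPPIV+ FAPs. Both mice showed a like fall, and the log2 fold change was -1.78 (SE 0.14, adjusted p = 2.17e-34). Epha3 (chr16:63543534-63864175, minus strand), a receptor that prefers ephrin-A ligands such as ephrin-A5, stood at 17.6 and 18.7 CPM against 7.05 and 7.35 CPM (log2 fold change -1.33, SE 0.14, adjusted p = 5.96e-20). The 4 receptors under the filter were Epha2 with 18 to 41 reads per library, Epha7 with 10 to 12, Ephb1 with 2 to 9 and Epha5 with 0 to 2. The EphA genes summed to 6.90 and 6.84 CPM per kb in DPPIV- FAPs and 2.59 and 2.85 in DPPIV+ FAPs, and the EphB genes to 28.8 and 28.9 against 15.5 and 17.2. All 10 listed Eph receptors together stood at 35.7 and 35.8 CPM per kb in DPPIV- FAPs and at 18.1 and 20.1 in DPPIV+ FAPs, while the 8 ephrins stood at 21.4 and 22.0 against 25.4 and 23.9. Epha1 was not among the 10 and is not in these sums. It stood at 2.10 and 1.94 CPM in DPPIV- FAPs and at 12.3 and 8.39 CPM in DPPIV+ FAPs. By level, transcripts of the 10 listed receptors exceeded those of the 8 ephrins in DPPIV- FAPs and were below them in DPPIV+ FAPs. The mural marker sum fell in the same libraries, by log2 ratios of -1.44 and -1.11, beside -0.98 and -0.83 for the Eph receptors, and its part in this result was not tested.

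Over all families, 12 of 20 receptor genes were tested, of which Robo1 rose, 8 fell and 3 did not pass, with a median log2 fold change of -0.97. Among the 14 ligand and RGM genes, 10 were tested, 4 rose, 5 fell and 1 did not pass, with a median of -0.11. By the same test, 15.9% of all genes tested rose and 17.2% fell. Robo2 among the receptors and Slit2 among the ligands passed the filter through DPPIV- FAPs alone, so they had to differ to be tested. Both are in these falls and medians, and in the counts of genes without overlap that follow. Over receptors and ligands together, DESeq2 made all 5 calls that were higher and 11 of the 13 that were lower. The levels of the 2 cell types did not overlap for 6 tested guidance genes with DPPIV+ FAPs above, and for 14 with DPPIV- FAPs above, compared with 27.8% and 28.6% of all genes tested and 56.3% in either direction. No test of the difference between receptors and ligands was made.

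Family members outside the list and genes that work with these ligands and receptors were read from lists. Of 10 other netrins, Eph receptors and RGM genes in the table, 4 were tested. Ntn4, a netrin of basement membranes, rose from 104 and 86.7 CPM to 222 and 214 CPM in DPPIV+ FAPs, without overlap (log2 fold change 1.20, SE 0.07, adjusted p = 3.11e-68). Epha1 stood at 2.10 and 1.94 CPM against 12.3 and 8.39 CPM, above in both mice (log2 fold change 2.35, SE 0.22, adjusted p = 5.19e-26). The fall of the listed Eph receptors was therefore not shared by Epha1. Ntn3 fell (log2 fold change -0.53, SE 0.18, adjusted p = 0.0135) but not in DESeq2 (adjusted p = 0.368), Ntng2 did not pass, and Epha6 and Epha10 had no reads.

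Of 48 partner genes, 43 were tested, 14 rose, 16 fell and 13 did not pass, with a median log2 fold change of -0.01. DESeq2 also made 11 of the calls in each direction. Across all genes tested, edgeR called 15.9% higher and 17.2% lower, and DESeq2 7.97% and 8.59%. The group with the most falls was that of Eph and ephrin effectors and sheddases, where 9 of 13 tested fell and 3 rose, and DESeq2 made 7 and 2 of these calls. Chn1 and Arhgef15 of this group passed the filter on low counts through DPPIV- FAPs alone, so they had to differ to be tested. Chn1, a Rac GTPase-activating protein that acts downstream of Epha4, fell from 5.64 and 5.27 CPM to 1.11 and 1.26 CPM (log2 fold change -2.19, SE 0.27, adjusted p = 8.75e-15). The RhoA exchange factors Arhgef15 and Ngef, which bind Eph receptors, also fell, with log2 fold changes of -1.48 (SE 0.27, adjusted p = 1.71e-07) and -1.35 (SE 0.20, adjusted p = 7.97e-11). The Rac exchange factor Tiam1 rose by 0.92 (SE 0.08, adjusted p = 2.17e-32), the ephrin-cleaving protease Adam10 by 0.36 (SE 0.07, adjusted p = 2.48e-07), and Sdcbp, a syndecan and ephrin-B adaptor, by 0.17 (SE 0.07, adjusted p = 0.0395), on the log2 scale, and Sdcbp was not called by DESeq2 (adjusted p = 0.320).

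Of the 14 Slit and Robo effectors and cofactors, all tested, 5 rose and 5 fell, beside 15.9% and 17.2% of all genes tested. DESeq2 made 4 of the calls in each direction, where it called 7.97% and 8.59% of all genes. The 3 Slit-Robo GTPase-activating proteins did not move together, as Srgap1 rose from 24.7 and 26.3 CPM to 44.3 and 52.0 CPM (log2 fold change 0.91, SE 0.08, adjusted p = 1.11e-26) and Srgap3 fell from 14.3 and 15.1 CPM to 7.28 and 8.45 CPM (-0.91, SE 0.15, adjusted p = 6.22e-09). Flrt3 (0.82) and Abl1 (0.54) rose, and the glypican gene Gpc1 (-1.16) and the kinase gene Pak1 (-1.09) fell. Among netrin and Unc5 partners, 5 of 9 tested rose and 1 fell, beside the same shares of all genes. DESeq2 made 4 of these 5 calls and did not make that of the fall. Trio and Fyn, which act below netrin receptors, each rose by 0.91 (SE 0.07), and Flrt2, a ligand of Unc5 receptors, by 0.82 (SE 0.07), whereas Maged1 fell slightly (-0.22) and was not called by DESeq2 (adjusted p = 0.0896). Of the 8 neogenin and RGM partners, Bmp2 rose from 41.3 and 39.8 CPM to 84.3 and 68.6 CPM (log2 fold change 0.91, SE 0.07, adjusted p = 7.31e-37), Bmp4 fell (-0.53, SE 0.07, adjusted p = 3.20e-14), Acvr1 fell (-0.28, DESeq2 adjusted p = 0.169), and 5 did not pass.

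**Figure D4:**
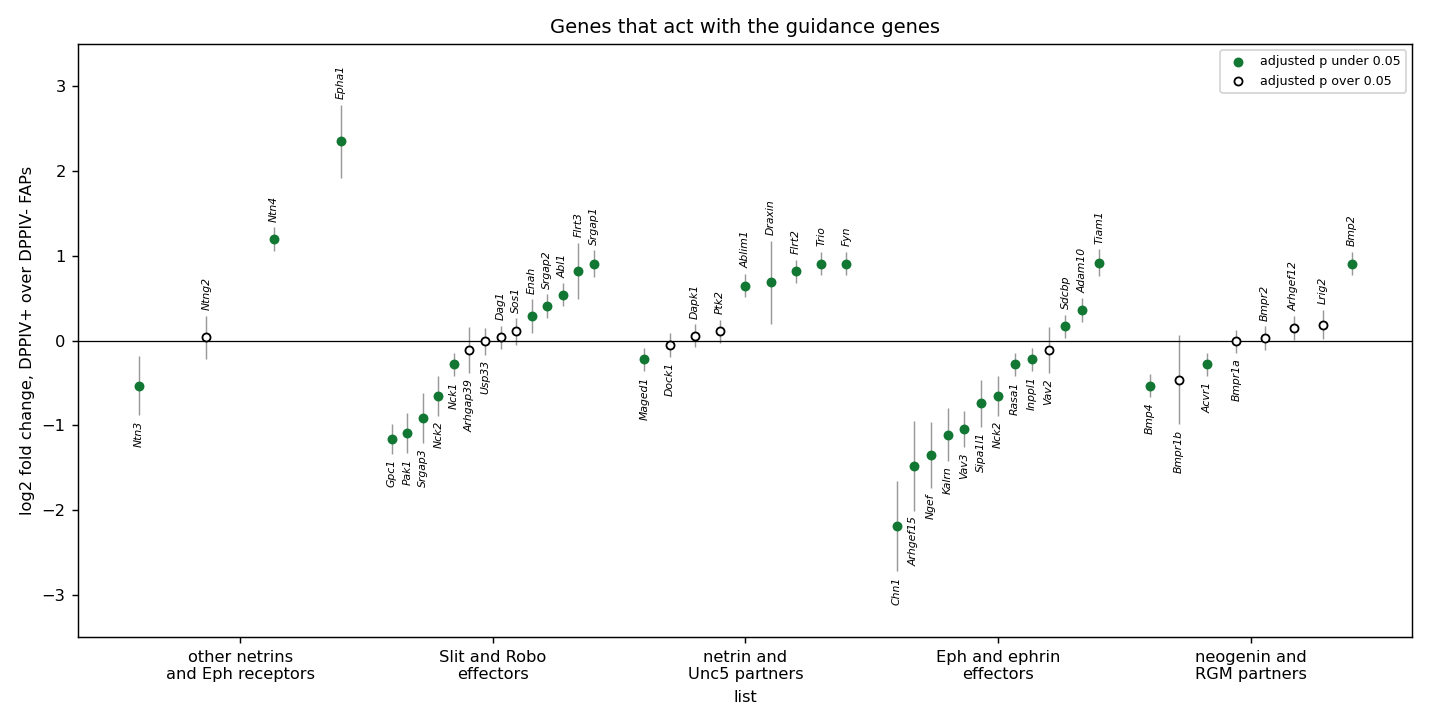
Log2 fold change, DPPIV+ over DPPIV- FAPs, of the tested genes of 5 lists of family members and partners, with 95% intervals, filled where the adjusted p was under 0.05. Epha1 (2.35) and Ntn4 (1.20) rise among the other family members, and the Eph and ephrin effectors lie mostly below 0, down to Chn1 at -2.19.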

How the data were processed

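Bulk RNA was sequenced from DPPIV- and DPPIV+ FAPs of 2 mice. After demultiplexing (bcl2fastq2 2.20) and STAR alignment to mm10, the authors counted reads per gene with RnaReadCounter and deposited these raw counts without normalization. The submitters' processing notes also name Bowtie. The labels give a NEBNext Ultra II stranded kit and the paper a TruSeq Stranded kit. Whether counting used strand, and the annotation, are not given in the sources used here. Columns that matched no sample numbered 0.

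The 34 genes and all other lists were chosen with earlier results of these data known. The 11588 genes that reached 2 CPM in 2 or more libraries were fitted in R 4.3.3 with edgeR 4.0.16 (TMM, mouse and cell type, quasi-likelihood F test, two-sided, not robust), and p-values were Benjamini-Hochberg adjusted over these genes (threshold 0.05). The fit estimated infinite prior degrees of freedom, so each gene took the spread of the trend, which makes p-values small. The p-values rest on 2 mice only. Mouse was a block, so this spread is that of the cell type difference between mice, taken from the trend over genes. P-values, standard errors and intervals therefore do not show how far the 2 mice differed for a given gene. For Robo4, for example, the log2 ratios in the 2 mice, -1.24 and 0.72, both lay outside its interval of -0.9 to 0.15. Standard errors are the log2 fold change over the root of F. Log2 ratios per mouse used a prior count of 0.125. CPM are on TMM-scaled totals. Levels per kb used the principal transcript of GENCODE M21.

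The labels give each mouse number to 1 library of each cell type, and the paper models the animal, so mouse entered as a block. Between cell types, the mouse differences correlated at 0.434 across genes. Alternatives were DESeq2 1.42.0, no block, RLE and upper-quartile factors, no filter, 2 CPM in at least 3 libraries, robust moderation, GC content and length offsets (loess span 0.5, 96.5% of genes) and each mouse left out. The fits were tested on simulated data, in which edgeR made more false calls than its threshold allows where the spread varied between genes. The simulated counts held no mouse effect, unlike the data, so they do not show how the block handles one. Shared exon bases came from GENCODE and similar transcripts from BLAST 2.17.0 (at least 97% over 50 bases). Tables and figures used Python 3.11.15, numpy 2.4.6, pandas 2.3.3 and matplotlib 3.10.9. All 34 genes are named. From each partner list at most 3 called genes per direction with the largest change are named.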

Additional observations from a re-analysis of the deposited data

How the results depend on the processing

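Over 8 alternatives with a test, 5 guidance genes were higher in every one except the fit without the mouse block, which called 4. The number lower was 11 by DESeq2, without the block and with 2 CPM in at least 3 libraries, 12 after the GC content and length correction and 13 otherwise. The filter on 3 libraries tested 19 guidance genes and left out Slit2, Robo2 and Robo4. Of the 18 called genes, 14 kept their call in every alternative that tested them. Ntn1, Rgma and Rgmb lost it without the replicate block, Rgma after the GC content and length correction, and Rgmb and Efna2 in DESeq2. The cause was not tested. In these 8 alternatives no direction changed except that of Efnb1, not called, which was -0.02 with upper-quartile factors. The median log2 fold change was -0.45 without the block, ranged from -0.46 to -0.26 over all tested alternatives, and was -0.30 to -0.66 with 1 mouse left out, a value with no test. Leaving out a mouse gave no counts, since 1 library per cell type was left. Over all genes, 1837 were called higher and 1989 lower, against 923 and 995 by DESeq2 and 1001 and 1119 without the block. The filter on low counts kept 12 guidance genes out of the main test. Without it, 33 guidance genes were tested, the counts stayed at 5 higher and 13 lower, and no gene under the filter was called. With so few reads, these 12 genes cannot be called alike or different here.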
